A study of Mus musculus with 4 samples.

Results

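Alveolar fibroblasts are the lipid-handling, Tcf21-positive fibroblasts of the gas-exchange wall. Within them, a Slc7a10 Scube2 state was selected by RNA counts: 887 of 68675 kept barcodes. A barcode entered when it held a unique molecular identifier (UMI, 1 counted RNA molecule) of at least 3 of Tcf21, Npnt, Ces1d, Inmt and Wnt2. It also had to hold none of Ptprc, Cdh5, Pi16 or Hhip, and fewer than 3 of Ppp1r3a, Itgbl1, Gabra3, Mmp3 and Olfr1033. Those steps left 9345 alveolar fibroblast barcodes. The last step asked for more UMIs over Fat3, Slc7a10, Scube2, Bmper, Fgfr4 and Adra1a than over Tnc, C7, Robo2, Cp, Mamdc2 and Chrna7. Barcodes with the reverse order, 8062 in number, are called the Tnc C7 Robo2 state below, and 396 barcodes were tied. The members are thus 9.49% of the alveolar fibroblast barcodes.

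The lungs came from male C57BL/6 mice that were 19 months old when a treatment of 1 month began. A pair of libraries came from mice given BPTES, a small molecule that blocks the use of glutamine by cells, and a pair from mice given its vehicle, DMSO. No deletion, transgene or reporter is named for any group, and dose, route and the number of mice per library are not given in the sources used here. Where libraries did not come from separate mice, the p-values measure only the spread between these libraries, which may be technical. After 1 hour of digestion, 20000 CD45-negative and 9000 CD45-positive sorted cells of the same tissue were mixed for each library, so the mixing sets the balance of leukocytes and other cells. The comparison of BPTES with DMSO addresses what BPTES changes in cells of the aged lung.

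Alveolar fibroblasts lie beside the alveolar type 2 epithelium and supply it with growth factors of the FGF, WNT and HGF families. Slc7a10 encodes a transporter of small neutral amino acids such as serine, glycine and alanine. Scube2 encodes a secreted protein that helps release lipid-modified Hedgehog ligands. Bmper encodes a secreted binder of BMPs, Fgfr4 an FGF receptor, Adra1a an alpha-1 adrenergic receptor and Fat3 an atypical cadherin. On the opposing side of the rule, Tnc encodes the matrix protein tenascin C, C7 a complement component, Robo2 a Slit receptor, Cp ceruloplasmin and Chrna7 a nicotinic receptor subunit. Glutamine synthetase, encoded by Glul, makes glutamine from glutamate.

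The libraries held 260346570 to 342107092 UMIs each, and between 91.0% and 93.5% of barcodes were kept by limits of 500 genes and 1000 UMIs from below and of 10% mitochondrial UMIs from above. Members had a median of 14214 UMIs in BPTES replicate 1, 16320 in BPTES replicate 2, 16732.5 in DMSO replicate 1 and 16073 in DMSO replicate 2. Each pair of libraries had between 65 and 104 kept barcode sequences in common, and no member barcode was among them.

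The rule cuts a continuous score. Among the 7606 alveolar fibroblast barcodes with at least 15 UMIs over the 12 state genes, the share of those UMIs from the 6 Slc7a10 Scube2 genes had a single broad peak below 40% in every library. The members lie in its upper flank, with no gap at the cut. In all, 183 barcodes were inside the cut by 1 UMI, 312 were outside it by 1 UMI, and 409 of the 887 members (46.1%) had a margin of 5 UMIs or fewer. The state is therefore a range of a per-cell score and not a separated cell type.

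**Figure D1:**
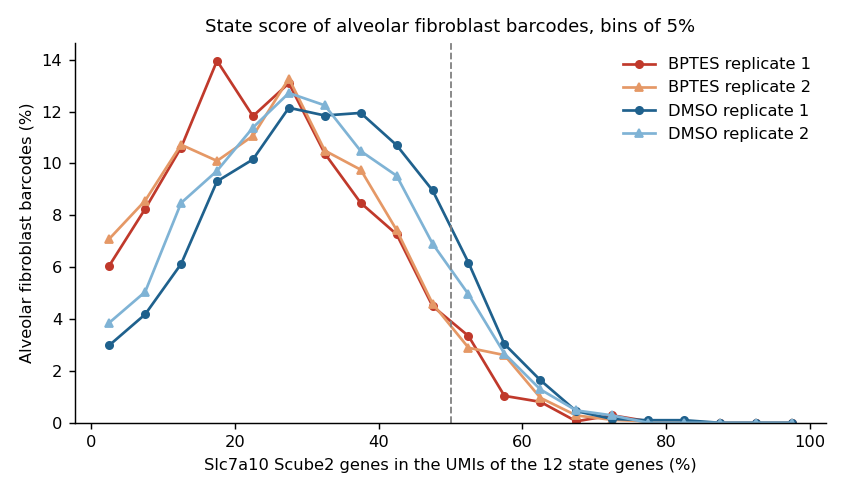
Distribution of the state score in bins of 5%, with the percent of UMIs over the 12 state genes that came from the 6 Slc7a10 Scube2 genes on the x axis and the percent of scored alveolar fibroblast barcodes on the y axis, 1 line per library. Each library has a single hump, its upper flank crosses the dashed line at 50%, and the lines of both BPTES libraries lie to the left of those of both DMSO libraries.

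Members differed in how much of the state they carried. At least 15 UMIs of the 6 Slc7a10 Scube2 genes were present in 596 members (67.2%), 77 had 5 to 14, and 214 (24.1%) had 4 or fewer. Those with 4 or fewer were shallow, with a median of 1552.5 UMIs in BPTES replicate 1, 3114 in BPTES replicate 2, 1878 in DMSO replicate 1 and 1872.5 in DMSO replicate 2. They made up 35.7% and 31.4% of the members in BPTES replicates 1 and 2 and 13.4% and 22.6% in DMSO replicates 1 and 2. The poorly supported members were thus more frequent in both BPTES libraries, and the tests of the treatments across all genes are given for all 887 members and for the 596 with at least 15 such UMIs, called well-supported below. The limit of 15 was chosen after the data had been seen.

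Summed RNA of epithelial, leukocyte and pericyte markers was concentrated in the members below that limit, and that of smooth muscle markers chiefly with BPTES. The 5 markers of alveolar type 2 cells, the makers of surfactant, summed to 88249 and 135240 counts-per-million (CPM) units in BPTES replicates 1 and 2 and to 42394 and 87128 CPM in DMSO replicates 1 and 2 there. In members with at least 15 state-gene UMIs, the same markers summed to 258 and 204 CPM with BPTES and 76.4 and 183 CPM with DMSO. In these members a single library stood apart for mesenchymal markers: BPTES replicate 2 had pericyte, myofibroblast and adventitial sums of 96.9, 82.8 and 638 CPM, against at most 5.74, 12.6 and 277 CPM in the other libraries. Adventitial markers were not concentrated below the limit. They summed there to 176 and 214 CPM with BPTES and 193 and 447 CPM with DMSO. Above it they summed to 277 and 638 CPM with BPTES and 224 and 203 CPM with DMSO. The Gabra3 set summed to 3.98 and 11.2 CPM with BPTES and 15.5 and 108 CPM with DMSO below the limit. Above it the sums were 33.0 and 35.8 CPM against 40.4 and 29.0 CPM. Smooth muscle markers summed to 296 and 205 CPM with BPTES and 23.2 and 22.5 CPM with DMSO below the limit. Above it they summed to 16.2 and 49.4 CPM against 11.2 and 8.63 CPM. Acta2, 1 of these markers, was lower below the limit with DMSO, at 3.87 and 4.83 CPM against 6.26 and 6.16 CPM above it. The leukocyte marker Cd52 was not concentrated below the limit. It stood there at 7.96 and 5.00 CPM with BPTES and 3.87 and 8.05 CPM with DMSO. Above the limit Cd52 was at 5.39 and 8.24 CPM against 3.65 and 4.31 CPM. Of the 3 leukocyte markers, 1 was higher and 1 lower in both BPTES libraries below the limit.

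Over all 887 members, Sftpc, which encodes surfactant protein C and carried most of the type 2 sum, stood at 22428 and 30649 CPM with BPTES and at 2262 and 11495 CPM with DMSO, so the groups did not overlap. All 5 type 2 markers were higher in both BPTES libraries than in either DMSO library, as were 23.9% of the 12251 genes tested in the members, while 27.7% were lower in both. The 4 airway markers summed to 309.8, 198 and 68.6 CPM in BPTES replicates 1 and 2 and DMSO replicate 1 but to 12742 CPM in DMSO replicate 2. The 4 pericyte markers summed to 92.5 and 228 CPM with BPTES and 42.6 and 49.4 CPM with DMSO. The smooth muscle sums were 102 and 92.1 CPM with BPTES and 12 and 10.9 CPM with DMSO. Type 1 epithelial markers summed to 1169 and 465 CPM with BPTES and 216 and 430.5 CPM with DMSO. Leukocyte markers summed to 358 and 538 CPM with BPTES and 53.6 and 188 CPM with DMSO, with Ptprc itself at 0 by the rule. Little of that sum came from Cd52, at 6.11 and 7.27 CPM with BPTES and 3.67 and 4.92 CPM with DMSO. The myofibroblast sums were 36.3 and 74.8 CPM against 8.08 and 12.4 CPM. Sums of pericyte, smooth muscle, type 1, leukocyte and myofibroblast markers were thus higher in both BPTES libraries as well, and their part, like that of the type 2 RNA, in the results over all members was not tested.

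Endothelial markers summed to between 7.74 and 16.6 CPM, neutrophil markers to between 21.6 and 43.3 CPM, and erythroid markers reached at most 0.259 CPM, with 1 of the 2 at 0 in every library. Mesothelial markers summed to at most 1.47 CPM in 3 libraries and to 25.4 CPM in DMSO replicate 2. The adventitial sums were 243 and 515 CPM with BPTES and 223 and 242 CPM with DMSO, and those of the Gabra3 set 23.6 and 28.7 CPM against 38.9 and 41.6 CPM.

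**Figure D2:**
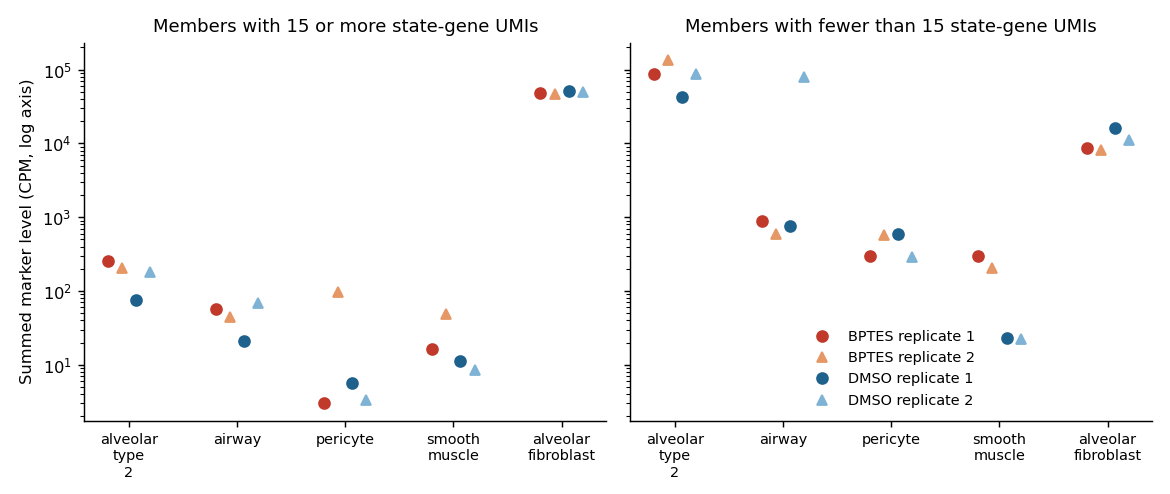
Summed marker levels (CPM, log axis) for 4 other cell types and for 23 alveolar fibroblast genes in members with at least 15 state-gene UMIs (left) and with fewer (right), 1 point per library. The type 2 sum lies between 76.4 and 258 CPM on the left and between 42394 and 135240 CPM on the right, while the alveolar fibroblast sum is higher on the left in all 4 libraries.

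A list of 23 alveolar fibroblast genes, 5 of them in the selection rule, summed to between 46420 and 50648 CPM in members with at least 15 state-gene UMIs, against 8119.8 to 16175 CPM in the others. In the former, Tcf21, a transcription factor of lung mesenchyme, stood at 749.7, 844, 698 and 796 CPM in BPTES replicates 1 and 2 and DMSO replicates 1 and 2. Npnt, the matrix protein nephronectin, stood at 2971, 2791, 2918 and 2905 CPM in the same order. These genes entered the choice of barcodes, so their levels describe the members and test nothing.

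The 6 genes that define the state were moderately higher than in the Tnc C7 Robo2 state and far from exclusive to it. Over all members, the median log2 ratio between the states across the 4 libraries was 1.02 for Fat3, 0.74 for Fgfr4, 0.69 for Slc7a10, 0.65 for Bmper, 0.61 for Scube2 and 0.61 for Adra1a. On the other side the ratio was -2.19 for Chrna7, -1.97 for Tnc, -1.65 for Cp, -1.02 for C7, -0.90 for Mamdc2 and -0.52 for Robo2. The ratios of Tnc, Cp and Chrna7 were thus larger in size than those of the 6 genes that define the state. Chrna7 was sparse, with a UMI in 7.74% to 9.70% of the members and 18.7% to 24.5% of the other state by library. C7 still reached a mean of 1087 CPM and Cp 825 CPM in the members. The rule used all of these counts, and no test was made.

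**Figure D3:**
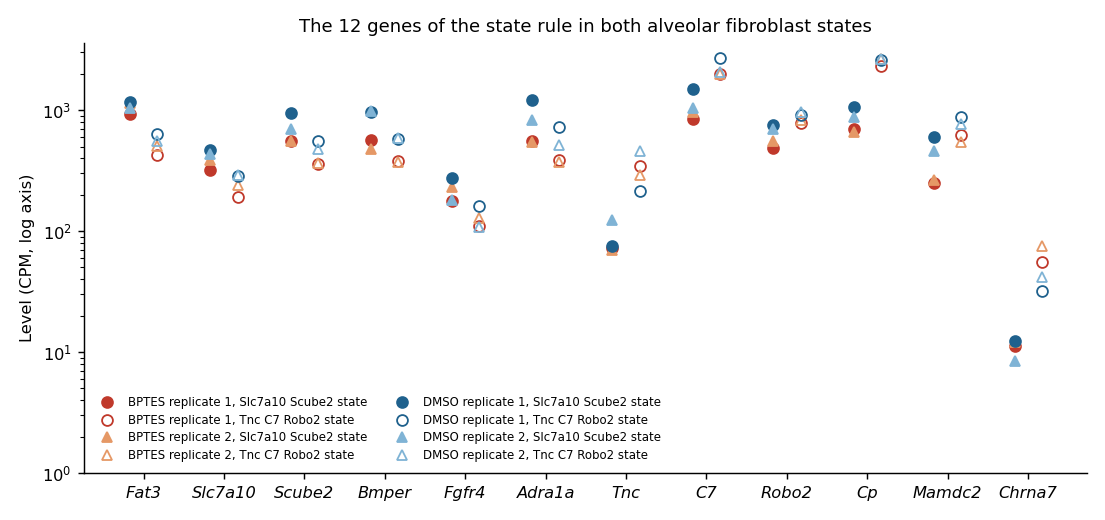
Levels (CPM, log axis) of the 12 genes of the state rule in the Slc7a10 Scube2 state (filled) and the Tnc C7 Robo2 state (open), 1 point per library. The first 6 genes are higher in the filled points of each library and the last 6 lower, with the widest gaps for Chrna7, Tnc and Cp.

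Genes outside the rule describe the state differently with and without the poorly supported members. Over all members, the gene with the highest ratio over the Tnc C7 Robo2 state was Rtkn2, with a mean of 76.5 CPM against 1.89 CPM (median log2 ratio 4.90). Igfbp2, Scel, Clic5, Col4a3, Col4a4 and Ager also ranked among the 10 highest. Rtkn2, Scel, Clic5 and Ager are known as genes of alveolar type 1 epithelium, so the leading genes of all 887 members go against the label.

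With at least 15 UMIs of their own set required in both states, the leading genes were of another kind and the ratios were small. Colq, which encodes the collagen tail of acetylcholinesterase, had a mean of 184 CPM against 101 CPM, a median log2 ratio of 0.91. Cntn1, a contactin adhesion protein, had 86.5 CPM against 42.7 CPM (0.90), and Mgll, which encodes monoglyceride lipase, 124 CPM against 71.2 CPM (0.81). Ryr3, an intracellular calcium release channel, had 91.4 CPM against 47.9 CPM (0.77). Esyt3, Tmc6, Fam19a1, Chst1, Slc22a23 and AC117608.1 completed the 10 highest. On the low side were Timp1, an inhibitor of metalloproteinases, at 1.88 CPM against 51.0 CPM (-3.94), and Igfbp5, which encodes an IGF-binding protein, at 0.517 CPM against 23.6 CPM (-3.81). Igfbp4, Csmd1, Cbr2, Sec14l3, Saa3, Lcn2, Sftpb and Sftpd were the others among the 10 lowest, and Sftpb and Sftpd are genes of surfactant-making epithelium. Each of these 20 genes had its direction in all 4 libraries, and both states come from the cells that defined them, so no test applies.

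The members were a smaller share of the lung cells in both BPTES libraries. Of barcodes without a Ptprc UMI, 168 of 10614 (1.58%, 95% Wilson interval 1.36 to 1.84) were members in BPTES replicate 1 and 185 of 10389 (1.78%, 1.54 to 2.05) in BPTES replicate 2. The numbers were 268 of 9765 (2.74%, 2.44 to 3.09) in DMSO replicate 1 and 266 of 12653 (2.10%, 1.87 to 2.37) in DMSO replicate 2. The intervals cover counting error only. BPTES libraries averaged 1.68% ± 0.140 (SD, n = 2) and DMSO libraries 2.42% ± 0.454 (SD, n = 2), which gives a log2 ratio of -0.53. The libraries of the groups did not overlap, but an exact permutation test of 2 against 2 cannot go below its two-sided p of 0.333, which is the value here (n = 2). Without DMSO replicate 1 the log2 ratio was -0.32.

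The share of the members among both states was also lower in both BPTES libraries. It was 7.89% and 8.39% in BPTES replicates 1 and 2 and 12.3% and 10.96% in DMSO replicates 1 and 2. The means were 8.14% ± 0.353 (SD, n = 2) and 11.6% ± 0.926 (SD, n = 2), with the same exact permutation p of 0.333 (n = 2). With only the members that had at least 15 state-gene UMIs, the share of barcodes without a Ptprc UMI was 0.820% and 1.04% with BPTES against 2.22% and 1.45% with DMSO. The log2 ratio of the means then widened to -0.98.

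**Figure D4:**
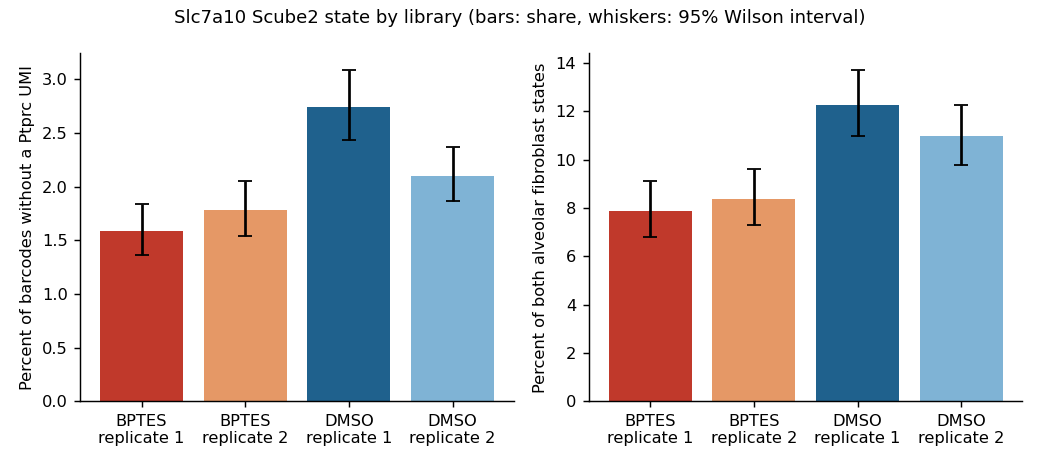
Share of the Slc7a10 Scube2 state in each library, as percent of barcodes without a Ptprc UMI (left) and as percent of both alveolar fibroblast states (right), with 95% Wilson intervals for counting error. Both BPTES bars are lower than both DMSO bars in each panel.

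The whole score was lower in both BPTES libraries. The median score of alveolar fibroblast barcodes was 24.5% and 25.6% in BPTES replicates 1 and 2 and 32.1% and 29.6% in DMSO replicates 1 and 2, a difference of means of -5.82 percentage points (exact permutation p = 0.333, n = 2). Scores above 50% were held by 5.25% and 6.58% of scored barcodes with BPTES and by 11% and 9.05% with DMSO.

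Over all alveolar fibroblast barcodes, which were chosen without the 12 state genes, the 6 Slc7a10 Scube2 genes had negative log2 fold changes of BPTES over DMSO. Here 0 of 17084 genes (0%) were called at an edgeR adjusted p under 0.05, while 4808 had an unadjusted p under 0.05 and DESeq2 called 1959. Bmper stood at 361 and 353 CPM with BPTES and at 598 and 600.1 CPM with DMSO, a log2 fold change of -0.75 (SE 0.07, edgeR adjusted p = 0.0563). Adra1a was at 368 and 358 CPM against 751 and 519 CPM (-0.82, edgeR adjusted p = 0.0732), and Scube2 at 341 and 349 CPM against 577 and 475 CPM (-0.62, edgeR adjusted p = 0.0714). For those 3 genes the groups did not overlap, which also held for 30.9% of the genes tested in the lower and 32.1% in the higher direction.

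Slc7a10 was at 183 and 235 CPM with BPTES and 292 and 289 CPM with DMSO (-0.48), and Fat3 at 420.4 and 508 CPM against 661 and 571 CPM (-0.42). Fgfr4 overlapped, at 106 and 127 CPM against 166 and 110 CPM (-0.25). Of the opposing genes, Chrna7 had a positive value, 47.8 and 64.7 CPM against 28.7 and 36.5 CPM (0.78). Mamdc2 was negative (-0.56), and Tnc ran from 192 CPM in DMSO replicate 1 to 408 CPM in DMSO replicate 2, a range that held both BPTES values.

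Other lists differed in the same barcodes as well. Of the 23 alveolar fibroblast genes, 19 had negative log2 fold changes, 17 of them without overlap (median -0.25). All 5 type 2 markers were higher without overlap (median 1.47), all 4 smooth muscle markers likewise (median 1.39), and all 4 mesothelial markers were lower without overlap (median -4.17). None was called, the median over all genes was -0.01, and the part of these in the values of the state genes was not tested. The number of calls over these barcodes, 0 with all 4 libraries, moved with the library left out. Such a fit leaves 1 library in its group.

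Within all 887 members, 4 of 12251 genes (0.0327%) were called between BPTES and DMSO, 3 higher and 1 lower with BPTES. Lyz1, a lysozyme whose reads may be shared with its near-identical neighbour Lyz2, was at 254 and 145 CPM with BPTES and 0.735 and 2.07 CPM with DMSO (log2 fold change 7.15, edgeR adjusted p = 0.0419). In BPTES replicates 1 and 2, a pair of barcodes gave 99.2% and 94.98% of its UMIs. Acta2, smooth muscle actin, was at 73.8 and 48.5 CPM against 6.12 and 5.95 CPM (3.35, edgeR adjusted p = 0.0481). A pair of barcodes gave 86.7% and 45% of its UMIs in BPTES replicates 1 and 2, and 40% and 21.7% in DMSO replicates 1 and 2. Scd1, a desaturase of fatty acid synthesis, was at 556 and 569 CPM against 97.2 and 138 CPM (2.28, edgeR adjusted p = 0.0481).

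Each of these 3 genes had a higher mean in another gate of the same libraries than over all members. The gate of barcodes with Epcam did not exclude members, of which 48 held an Epcam UMI, and no gate was made for smooth muscle cells. Lyz1 and Scd1 peaked in barcodes with Epcam, the gene of an epithelial adhesion protein, at a mean of 736 and 2818 CPM, and Acta2 in barcodes of the Gabra3 set at 537 CPM. In members with at least 15 state-gene UMIs, Lyz1 had 5, 2, 0 and 1 UMIs in BPTES replicates 1 and 2 and DMSO replicates 1 and 2, too few for the test. There Scd1 was at 5.99 and 12.1 CPM against 5.48 and 6.78 CPM, which overlap. Acta2 was at 14.98 and 38.3 CPM against 6.26 and 6.16 CPM, which do not (log2 fold change 2.14, edgeR adjusted p = 0.0963). None of the 3 increases was called in the well-supported members. Acta2 was called in 2 other selections of barcodes. Its log2 fold change was 3.75 among members without a UMI of 6 genes of other lineages (edgeR adjusted p = 0.00203). Those genes were Epcam, Pecam1, Cd79a, Cd3e, Msln and Upk3b. None is on the lists of smooth muscle, pericyte or myofibroblast markers, so barcodes with RNA of those cells could stay in. In the 10% of barcodes with the highest score, the value for Acta2 was 1.92 (edgeR adjusted p = 0.0164). Over all members, a few barcodes led the sums of Lyz1 in both BPTES libraries and of Acta2 in BPTES replicate 1. The sum of Scd1 was led by a few barcodes in BPTES replicate 1 and DMSO replicate 1. Whether the same barcodes led more than 1 of these genes was not determined. Among the well-supported members, a pair of barcodes gave 64% and 31.6% of the Acta2 UMIs in BPTES replicates 1 and 2. In DMSO replicates 1 and 2 it gave 41.7% and 25%. This share was not determined for the 2 other selections.

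Thbs1 was the single decrease called over all members, and it was also called in the well-supported ones among them. It encodes thrombospondin 1, a secreted matrix protein that binds cells and activates latent TGF-beta, and lies on chr2:118111876-118127133 of mm10. Over all members it was at 434 and 408 CPM with BPTES and at 1102 and 1108 CPM with DMSO (log2 fold change -1.37, SE 0.12, edgeR adjusted p = 0.0481). In members with at least 15 state-gene UMIs the levels were 580 and 544 CPM against 1164 and 1300 CPM (log2 fold change -1.12, SE 0.11, edgeR adjusted p = 0.00684). The groups did not overlap in either set, and no pair of barcodes held over 31.7% of its UMIs in a library. The well-supported members held 968 of the 1065 and 1122 of the 1178 Thbs1 UMIs in BPTES replicates 1 and 2. In DMSO replicates 1 and 2 they held 4466 of 4502 and 4219 of 4282. Their call thus rests on nearly the same counts and is no separate support.

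The well-supported members gave a different list. Of 10889 genes, 17 (0.156%) were called, all of them lower with BPTES. Only Thbs1 was also among the 4 called over all members, where the remaining 16 had edgeR adjusted p-values from 0.0569 for Cx3cr1 to 0.123 for Tiparp, all with negative log2 fold changes and groups that did not overlap. The count rested on the DMSO libraries: it was 3 without DMSO replicate 1 (Il6, Muc13 and Thbs1) and 0 without DMSO replicate 2, against 277 without BPTES replicate 1 and 24 without BPTES replicate 2. Over all members the count was 251 without DMSO replicate 1, 1322 without DMSO replicate 2, 17 without BPTES replicate 1 and 15 without BPTES replicate 2. Thbs1 missed the threshold over all members without BPTES replicate 1 or 2.

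**Figure D5:**
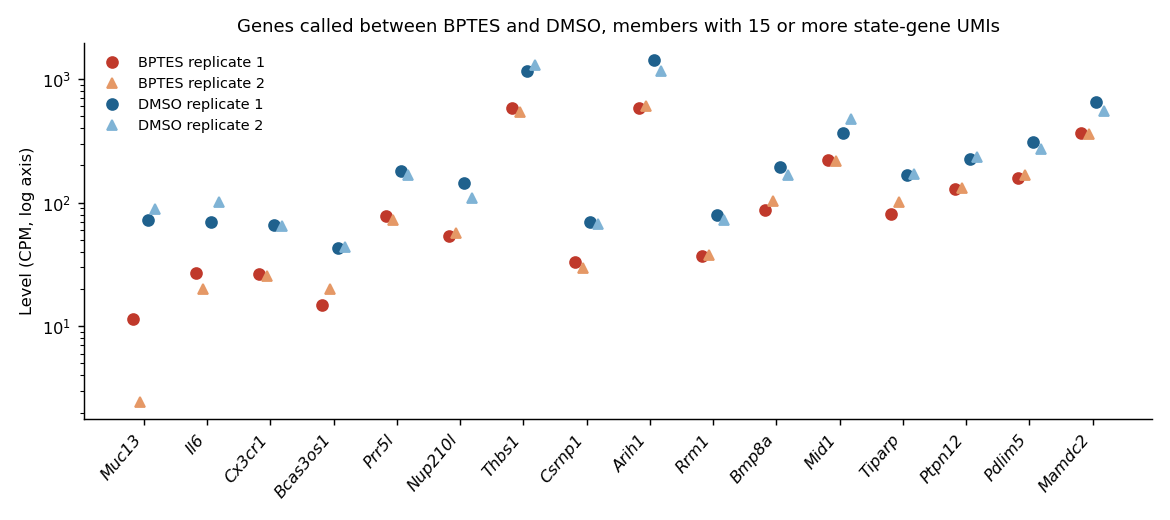
Levels (CPM, log axis) of 16 of the 17 genes called in members with at least 15 state-gene UMIs, 1 point per library, ordered by log2 fold change. Both BPTES points lie below both DMSO points for each gene shown, from Muc13 at -3.61 to Mamdc2 at -0.72.

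Muc13 had the lowest value of the 17. It encodes a cell-surface mucin and lies on chr16:33794037-33819934. It was at 11.4 and 2.42 CPM with BPTES, from 19 and 5 UMIs, and at 72.2 and 89.0 CPM with DMSO, from 277 and 289 UMIs (log2 fold change -3.61, SE 0.36, edgeR adjusted p = 0.00684). Among the gates compared, its highest mean outside the members was 34.2 CPM, in barcodes with Pi16, a gene of adventitial fibroblasts. Close to it were 33.8 CPM in barcodes with Upk3b, a mesothelial marker, and 32.2 CPM in the Tnc C7 Robo2 state. The gate of barcodes with Upk3b did not exclude members.

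Il6, the inflammatory cytokine interleukin 6, lies on chr5:30013114-30019981. It was at 27.0 and 19.9 CPM with BPTES and 70.1 and 101 CPM with DMSO (log2 fold change -1.87, SE 0.23, edgeR adjusted p = 0.0196). A pair of barcodes gave 66.7% and 43.9% of its UMIs in BPTES replicates 1 and 2 and 29.7% and 21.3% in DMSO replicates 1 and 2. Il6 RNA was thus carried by few cells in each library, and its level in barcodes of the Gabra3 set was far higher, at a mean of 573 CPM.

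Cx3cr1, a chemokine receptor best known from macrophages, was at 26.4 and 25.7 CPM with BPTES and 65.7 and 64.4 CPM with DMSO (log2 fold change -1.31, SE 0.15, edgeR adjusted p = 0.0144). Its mean in barcodes with Ptprc, the gene of CD45, was 105 CPM, the highest of the gates compared. The others ran from 12.1 CPM in barcodes with Epcam to 64.4 CPM in barcodes with Cdh5. The annotated span of Csrnp1, also called in these members, lies inside that of Cx3cr1 on the same strand. Whether the reads of these genes were told apart was not tested. The 3 leukocyte markers summed to 30.6 and 25.7 CPM with BPTES and to 24.2 and 31.4 CPM with DMSO in these members, a range that overlaps. The neutrophil markers summed to 17.4 and 24.2 CPM against 39.6 and 32.0 CPM.

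Several called genes act in signalling. Prr5l, a partner of mTOR complex 2, was at 77.9 and 72.7 CPM with BPTES and 182 and 169 CPM with DMSO (-1.21). Bmp8a, a BMP ligand, was at 86.9 and 102 CPM against 196 and 166 CPM (-0.92). Ptpn12, a tyrosine phosphatase that acts on adhesion proteins, was at 129 and 130.3 CPM against 227 and 233 CPM (-0.81). Tiparp, a target of the aryl hydrocarbon receptor, was at 80.3 and 101 CPM against 168 and 169 CPM (-0.87). For each of these, the lowest DMSO library was above the highest BPTES library, and the edgeR adjusted p-values ran from 0.00684 for Prr5l to 0.0394 for Tiparp.

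Others belong to ubiquitin transfer, the cytoskeleton, the nucleus and nucleotide synthesis. Arih1, a ubiquitin ligase, was the most abundant of the 17, at 588 and 605 CPM with BPTES and 1431 and 1157 CPM with DMSO (-1.10, edgeR adjusted p = 0.00728). Mid1, a microtubule-associated ubiquitin ligase, was at 223 and 218 CPM against 363 and 477 CPM (-0.91). Pdlim5, a scaffold of actin filaments, was at 159 and 168 CPM against 308 and 270.2 CPM (-0.80). Csrnp1, a nuclear protein, had a log2 fold change of -1.12, Rrm1, a subunit of ribonucleotide reductase, -1.001 and Nup210l, a nuclear pore paralogue, -1.18. Bcas3os1, an antisense RNA, was at 14.98 and 19.9 CPM against 42.8 and 43.7 CPM (-1.28). The use of strand in counting is not given in the sources used here, so its reads and those of the gene on the other strand may not be told apart. Mamdc2, the remaining call (-0.72), is a gene of the selection rule, and its value is a description.

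Over all 887 members the 16 genes besides Thbs1 ran from a log2 fold change of -3.94 for Muc13 to -0.66 for Tiparp. Muc13 was there at 7.74 and 1.73 CPM with BPTES and 67.8 and 74.8 CPM with DMSO. Il6 was at 21.6 and 20.8 CPM against 67.8 and 86.7 CPM (-1.84), and Cx3cr1 at 19.2 and 20.1 CPM against 61.7 and 57.9 CPM (-1.58). Arih1 was at 446 and 487 CPM against 1359.9 and 1005 CPM (-1.32). None of these 4 was called over all members.

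All 17 genes also had negative values in all alveolar fibroblast barcodes, where none was called. There the log2 fold change was -2.35 for Muc13, -1.24 for Prr5l and -1.03 for Cx3cr1, but -0.40 for Thbs1 and -0.12 for Il6. Members are among those barcodes and the same libraries enter both fits.

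The difference between the states in the response to BPTES was tested as an interaction over the summed counts of both states in the 4 libraries. By the selection rule, 0 of 16059 genes (0%) were called by edgeR, 909 had an unadjusted p under 0.05, and DESeq2 called 23. With at least 15 UMIs of its own set required in both states, 29 of 15665 genes (0.185%) were called, 22 with a lower response in the Slc7a10 Scube2 state and 7 with a higher one. Of the 17 genes called in the well-supported members, 5 were among them: Thbs1, Il6, Muc13, Ptpn12 and Arih1. Without BPTES replicate 1 the 29 became 314, without BPTES replicate 2 107, without DMSO replicate 1 80 and without DMSO replicate 2 111.

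For Thbs1 the difference of the log2 responses was -0.86 (SE 0.09, edgeR adjusted p = 0.000124). On the scale of that fit, Thbs1 was at 571 and 533 CPM with BPTES and 1144 and 1275 CPM with DMSO in the Slc7a10 Scube2 state. In the Tnc C7 Robo2 state it was at 1501 and 1519 CPM against 1543 and 2054 CPM. For Il6 the difference was -1.85 (SE 0.20, edgeR adjusted p = 0.000154): 26.5 and 19.5 CPM against 68.9 and 99.4 CPM in the members, and 199 and 191 CPM against 192 and 193 CPM in the other state. Both genes were thus lower in the Slc7a10 Scube2 state than in the other state in every library, and BPTES and DMSO differed more in the former.

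Hgf encodes hepatocyte growth factor, a mitogen of epithelium. It was at 97.1 and 135 CPM with BPTES and 345 and 212 CPM with DMSO in the well-supported members, a log2 fold change of -1.24 that missed the threshold (edgeR adjusted p = 0.0820). Its interaction was called, with a difference of -1.05 (SE 0.17, edgeR adjusted p = 0.0145). In DMSO replicates 1 and 2 a pair of barcodes gave 38.9% and 36.3% of its UMIs.

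No gene was called in the well-supported members on the lists of FGF, Hedgehog, BMP and glutamine genes, the pathways of the state genes and of the treatment. Bmp8a, described above, is not on the BMP list. Fgfr4, Scube2, Bmper and Slc7a10, which stand on these lists, are genes of the selection rule, so their levels within the members are shaped by it and are given as descriptions. Over the 6804 genes with a mean of at least 20 CPM, 22.7% were lower and 21.9% higher with BPTES with no overlap between groups, and the counts below read against these shares. Of 18 genes of FGF receptors, ligands and feedback, 6 were lower and 4 higher without overlap and none was called. Fgfr4 itself was at 256 and 325 CPM with BPTES and 296 and 217 CPM with DMSO (0.20). The ligand Fgf7, a growth factor for epithelium, was at 136 and 152 CPM against 112 and 102 CPM (0.45, edgeR adjusted p = 0.195), and the feedback phosphatase Dusp6 at 64.1 and 61.0 CPM against 83.2 and 81.3 CPM (-0.38, edgeR adjusted p = 0.335).

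Of 10 Hedgehog genes, 4 were lower and 0 higher without overlap, and none was called by edgeR, with a lowest adjusted p of 0.326. Scube2 was at 773 and 760.05 CPM with BPTES and 1012 and 839 CPM with DMSO. The receptor and target Ptch1 overlapped, at 110.3 and 97.4 CPM against 107 and 74.2 CPM. Of 17 BMP genes, 5 were lower and 2 higher. Among them Id3, a target of BMP signalling, was at 569.9 and 487 CPM against 779.8 and 1100.5 CPM (-0.82, edgeR adjusted p = 0.0990). The ligands Bmp4 and Bmp5 overlapped. Bmper was at 834 and 666 CPM against 1053 and 1208 CPM.

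Of 19 genes of glutamine and glutamate handling, 5 were lower and 7 higher without overlap, and none was called. Glul was at 124 and 160.3 CPM with BPTES and 95.7 and 90.3 CPM with DMSO (0.63, SE 0.14, edgeR adjusted p = 0.125). The transporters Slc1a3 and Slc1a5, which carry glutamate and glutamine, were at 271 and 253 CPM against 356 and 342 CPM (-0.40) and at 160.0 and 185 CPM against 224 and 221 CPM (-0.35). Slc7a10 was at 446 and 524 CPM against 503 and 516 CPM within these members, which the rule chose by it. Over all members, Glul did not overlap between groups either (0.64).

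The remaining lists held few calls. Of 25 lists of pathway and identity genes, 4 held a called gene in the well-supported members: Thbs1 among matrix genes, Il6 among both inflammatory and senescence genes, and Mamdc2 among the genes of the rule. The medians of the lists ran from -0.19 for interferon genes to 0.24 for genes of IGF signalling, beside 0.00 over all genes. Over all members 3 lists held a call, for Scd1, Acta2 and Thbs1, and the medians ran from -0.49 for the 6 genes of the Tnc C7 Robo2 set to 0.24 for genes of glutathione and NRF2.

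Among 26 interferon genes, 8 were lower and 2 higher without overlap. Irf1, a transcription factor induced by interferon, was at 125 and 137 CPM with BPTES and 208 and 190.4 CPM with DMSO (-0.59, edgeR adjusted p = 0.0992). Among 49 matrix genes, 18 were higher and 8 lower without overlap in the well-supported members. Over all members the order was the other way, with 11 of 62 matrix genes tested higher and 30 lower without overlap. Of all 12251 genes tested there, 23.9% were higher and 27.7% lower. That count had no limit of 20 CPM. Without this limit, 20 of 56 matrix genes were higher and 8 lower in the well-supported members, beside 2128 higher and 2485 lower of all 10889 genes. The fibrillar collagen genes Col3a1 and Col5a2 were at 524 and 543 CPM against 344 and 418 CPM (0.50) and at 286 and 285 CPM against 211 and 205 CPM (0.47), with edgeR adjusted p-values of 0.127 and 0.121. The highest value on the list was that of Dcn (4.05, edgeR adjusted p = 0.178), at 346 CPM in BPTES replicate 2 and at most 12.8 CPM in the other libraries. Dcn is also an adventitial marker, and the adventitial markers summed to 277 and 638 CPM with BPTES and 224 and 203 CPM with DMSO. Their part in the matrix genes was not tested. Of 21 glutathione and NRF2 genes, 12 were higher and 2 lower, and the lowest edgeR adjusted p among them was 0.337. In the lipid and retinoid list, Lrat, which stores retinol as esters, was at 123 and 159 CPM against 231 and 205 CPM (-0.61, edgeR adjusted p = 0.125).

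Genes tied to senescence held no call beyond Il6. Cdkn2a, which encodes the cell-cycle inhibitor p16, had 0 UMIs in the members of all 4 libraries, which allows levels of up to 1.27 and 1.02 CPM with BPTES and 0.737 and 0.759 CPM with DMSO (3 counts of each library's total). Cdkn1a, which encodes p21, was at 31.8 and 58.6 CPM with BPTES and 54.0 and 104 CPM with DMSO in the well-supported members, which overlap (log2 fold change -0.75, SE 0.32, edgeR adjusted p = 0.430). Over all members Cdkn1a was at 33.0 and 55.4 CPM against 55.6 and 98.0 CPM, just without overlap (edgeR adjusted p = 0.299). Cdkn2b was left with 1, 3, 1 and 5 UMIs in the well-supported members and was not tested there. Over all members it was at 8.56 and 8.31 CPM with BPTES and 0.490 and 4.92 CPM with DMSO, without overlap (log2 fold change 1.66, edgeR adjusted p = 0.340). A pair of barcodes gave 71.4% and 79.2% of its UMIs in BPTES replicates 1 and 2, and 100% and 68.4% in DMSO replicates 1 and 2. Genes of the early response to dissociation were also read, since digestion lasted 1 hour: of 27, 9 were lower and 2 higher without overlap, and the part of that response in the values above was not tested.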

How the data were processed

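Single-cell 3' RNA libraries of lung were profiled, 2 per group. The authors deposited UMI count matrices of 31054 genes, 1 per library, made with Cell Ranger 8.0.1 against mm10 per the submitters' processing notes; no further normalization was applied to these counts. Gene positions are from GENCODE M21.

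Members and gene lists were chosen with earlier results of these data known. No doublet caller was run; limits on UMIs and on genes of other lineages served as alternatives. Counts were summed per library and state, and the sums were compared by the quasi-likelihood test of edgeR 4.0.16 under R 4.3.3, with TMM scaling, the filterByExpr filter and p-values adjusted by Benjamini-Hochberg over every gene tested (threshold 0.05, two-sided). DESeq2 1.42.0 was an alternative. Levels are CPM of the sums on TMM-scaled library sizes. The interaction fit had a term per library, the state, and state by treatment. Ratios between states used a pseudocount of 1 CPM.

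Named genes are called genes with groups that do not overlap and a mean of at least 10 CPM (up to 12 per direction), called genes of fixed lists, the genes of the rule, genes of fixed pathway lists with at least 20 CPM, up to 10 genes per direction between the states, and up to 5 interaction calls per direction. The calls in members with at least 15 state-gene UMIs, and further list genes, Hgf among them, were named after their values were seen. A called gene and a gene of the glutamine list are counted but not reported here by name.

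Counts were also simulated, with 200 changed genes of a mean of at least 10 CPM. There the edgeR fit over members recovered 58% of 2-fold and 93% of 4-fold changes among 11956 genes. In members with at least 15 state-gene UMIs it recovered 74% and 97% among 10693 genes. Unchanged genes were 18 and 15 of the 169 and 186 calls. Library sums were drawn and not single barcodes, so these rates may not hold for genes led by a few barcodes. Replicates within a group differed beyond counting error (chi-square per degree of freedom 4.99 for BPTES and 13.3 for DMSO). Python 3.11.15 with numpy 2.4.6, scipy 1.17.1 and pandas 2.3.3 was used, and matplotlib 3.10.9 for plots.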

Additional observations from a re-analysis of the deposited data

Results flagged for a closer look

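The response to BPTES differed between the 2 alveolar fibroblast states, by the edgeR test of the interaction in barcodes with at least 15 UMIs of their own set, for 29 genes. Those named here are the 5 with the largest difference in each direction and those also called within the Slc7a10 Scube2 state. The difference, response in the Slc7a10 Scube2 state minus that in the Tnc C7 Robo2 state on the log2 scale, was -4.55 for Scgb1a1, a secretory protein of airway cells, -4.03 for 1700007G11Rik, -3.87 for Lcn2, -3.53 for Saa3 and -3.17 for Chil1. For each of these 5 genes both BPTES libraries were above both DMSO libraries in the Tnc C7 Robo2 state. Scgb1a1 stood there at 1132 and 1289 CPM with BPTES and 24.3 and 65.2 CPM with DMSO, and in the Slc7a10 Scube2 state at 54.9 and 43.2 CPM against 20.2 and 67.4 CPM. Without the limit of 15 UMIs, it was at 1063.5 and 1794.5 CPM against 678 and 184 CPM in the Tnc C7 Robo2 state. Over all members it was at 184 and 144 CPM against 49.0 and 12661 CPM. The 5 type 2 markers summed to 24099 and 25108 CPM against 5946 and 11222 CPM in the Tnc C7 Robo2 state. The part of epithelial RNA and of single barcodes in these differences was not tested.

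Positive differences were 5.24 for Lum, 3.81 for Dcn, 3.48 for Smoc2, 2.35 for Cxcl10 and 0.52 for Fat3, a gene of the selection rule, whose value is a description. Lum, Dcn and Smoc2 are matrix genes, Dcn among the adventitial markers, that stood high in a single library of the Slc7a10 Scube2 state: Dcn was at 339.7 CPM in BPTES replicate 2 and at 7.08, 12.6 and 8.76 CPM in BPTES replicate 1 and DMSO replicates 1 and 2. Among the genes also called within the state, the difference was -1.85 for Il6, -1.49 for Muc13, -0.86 for Thbs1, -0.66 for Ptpn12 and -0.47 for Arih1.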

How the results depend on the processing

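The lower share of the state with BPTES kept its direction under each alternative that retained the well-supported members. Its log2 ratio among barcodes without a Ptprc UMI (-0.53) became -0.80 with a margin of 3 UMIs, -0.83 with the rule applied after thinning to 3000 UMIs and -0.98 with at least 15 state-gene UMIs. The margin and the limit of 15 are set on the genes of the rule, so their wider ratios are no separate support. It was -0.46 without UMIs of 6 other-lineage genes and ranged from -0.71 to -0.32 without each library, with -0.32 without DMSO replicate 1. Among both states (-0.51) it became -0.66 with at least 3000 UMIs per barcode, -0.74 with the margin, -0.78 after thinning and -0.80 with at least 15 state-gene UMIs. It ranged from -0.59 to -0.43 without each library. Members with fewer than 15 state-gene UMIs, taken alone, went the other way among barcodes without a Ptprc UMI. They were 0.763% and 0.741% of these with BPTES and 0.522% and 0.648% with DMSO. Among barcodes of both states with fewer than 15 UMIs of their own set, they were 18.4% and 15.2% against 23.7% and 21.4%.

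Counts of called genes moved far more, and the cause was not tested. For all members (4 called), the count was 321 with DESeq2, 779 with no filter on low counts, 89 and 0 with mitochondrial limits of 5% and 20%, 2 with at least 3000 UMIs, 0 with at most 3 times the median UMIs, 76 with the margin of 3, 0 after thinning, 59 without UMIs of 6 other-lineage genes, 0 with no state rule, 17 with at least 15 state-gene UMIs, 42 in the 10% of barcodes with the highest score, and 15 to 1322 without each library. The last 2 settings on barcodes were chosen after seeing the data, as were the comparisons over the well-supported members and over all alveolar fibroblast barcodes. Leaving out a library leaves 1 in its group, which is assumed to vary like the other group. For the well-supported members (17 called) it was 41 with DESeq2, 449 with no filter, 42 in the highest 10% and 0 to 277 without each library. For all alveolar fibroblast barcodes (0 called) it was 1959 with DESeq2, 32 with library size alone, 14 at a mean of at least 10 CPM and 0 to 1715 without each library. For the interaction (0 called) it was 23 with DESeq2, 336 with no filter, 17 with the margin, 10 after thinning, 27 without other-lineage UMIs, 29 with at least 15 UMIs of their own set and 6 to 38 without each library. That count of 29 was 15 with DESeq2, 185 with no filter, 7 at a mean of at least 10 CPM and 80 to 314 without each library. Scd1 reversed, to -0.021, in members without other-lineage UMIs. Of 186 values for the 17 genes called in the well-supported members, none reversed and 37 lost the call.

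Deviations of libraries with the same replicate number had a correlation of -0.078 over members and 0.014 in the well-supported ones. With 2 libraries per group this is a single contrast without a spread to set it against. It cannot decide whether the numbers pair the libraries. With the replicate block, 0 genes were called over all members, 43 in the well-supported members and 873 over all alveolar fibroblast barcodes, and the log2 ratio of the share was -0.52.

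Depth limits genes at a few UMIs per library, such as Muc13 with BPTES.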
